A study of Danio rerio with 10 samples.

Results

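The genes described here are 9 receptors and surface or secreted proteins of blood vessels: the vascular endothelial growth factor (VEGF) receptors flt1, kdrl, kdr and flt4, the angiopoietin receptor tek and its relative tie1, the junction proteins cdh5 and pecam1a, and the secreted protein egfl7. They were chosen by name from 32520 gene identifiers, flt1 by its identifier ENSDARG00000019371 and pecam1a (ENSDARG00000060263) because RefSeq lists pecam1 as its synonym. All 9 were found. They were followed through 10 RNA libraries of cells sorted from adult zebrafish ventricles, which form 2 experiments. In the first, cells carrying eGFP from the Tg(CD41.eGFP) reporter were sorted after amputation of part of the heart, from fish with 1 mutant copy of the cloche locus (clofv087b/+, called clo/+ here, 3 libraries) and from wild-type fish (3 libraries). In the second, cells carrying DsRed from the Tg(gata1a:DsRed) reporter were sorted 7 days after treatment with 4-HT (4-hydroxytamoxifen, which activates Cre-ERT2). Here 2 libraries are titled Npas4l OE (the OE-labelled libraries) and 2 are titled as controls. The fish of the OE-labelled libraries carry gata1a:Cre-ERT2, a recombinase limited to cells that use the gata1a promoter, together with ubi:loxp-eGFP-stop-loxp-Npas4l, which makes Npas4l once its stop is removed. Control replicate 2 carries the second transgene without the recombinase, whereas the genotype label of control replicate 1 is clofv087b/+. The CD41 libraries are dated 1 day after amputation in the sample labels and 3 days in the series text. Each library pools 15 ventricles and 6000 sorted cells, and every library is labelled as platelets, the nucleated thrombocytes of fish. Nothing in the labels says that replicates came from separate days or tanks, so p-values measure the spread between these pools.

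Endothelial cells line blood vessels and the chambers of the heart. They receive VEGF signals through receptor tyrosine kinases: kdrl and kdr are the zebrafish receptors of the VEGFR2 type, flt1 binds VEGF with little signalling and acts as a decoy, and flt4 is the receptor for VEGF-C in veins and lymphatic vessels. Tek (Tie2) binds angiopoietins, and tie1 is a partner of tek. VE-cadherin, the product of cdh5, holds endothelial cells together at adherens junctions, Pecam1 is an adhesion molecule at the same borders, and Egfl7 is an endothelial protein of the matrix. In mammals PECAM1 is also carried by platelets and leukocytes, TEK by blood stem cells and FLT1 by monocytes. Npas4l, the product of the cloche locus, is a transcription factor at the start of endothelial and blood cell formation, and zebrafish embryos without it form almost no endothelial cells.

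Each library held between 6764258 and 13067068 reads counted to genes. The count of npas4l itself was 14, 17 and 32 in the clo/+ libraries against 6, 33 and 14 in wild type, and 451 and 265 in the OE-labelled libraries against 344 and 230 in the controls. These counts overlapped in both experiments, so the direction of every difference given here rests on the titles. The thrombocyte gene itga2b, whose product is CD41, was at 457 CPM in clo/+ replicate 3 and at 771 CPM or more in the other 9 libraries (CPM are counts scaled to library size with TMM factors over all 10 libraries). Of the 9 vascular genes, 8 had at least 68 counts in every library and flt4 had 0 to 16. In pooled cells, fewer cells of a type and less RNA per cell cannot be told apart.

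In CD41-sorted cells, flt1 and tek were the members with the clearest separation between clo/+ and wild type, and both were higher in clo/+. The level of flt1 was 2.17-fold and that of tek 1.80-fold higher in the fit, while cdh5 and tie1 were at nearly the same mean in both groups. No member passed an adjusted p of 0.05 in edgeR's quasi-likelihood test, where 0.0145% of the 13749 genes tested did. DESeq2 called flt1 and tek among 150 calls over all genes, and limma-voom called no member. With an unadjusted p under 0.05 there were 4 members, flt1, kdrl, tek and egfl7, all higher in clo/+, where 7.19% of all genes tested were higher and 4.79% lower at that p. That count was 2 without wild-type replicate 2, without clo/+ replicate 1 or without clo/+ replicate 3. Flt4 did not pass the filter on low counts, so 8 of the 9 genes were tested. Their median log2 fold change was 0.47, beside a median of -0.002 over all genes tested, and all 8 values lay above 0, as did those of 49.8% of all genes.

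Among the VEGF receptors, flt1 was at 51.2, 50.9 and 72.4 CPM in clo/+ replicates 1 to 3, against 26.8, 31.0 and 22.02 CPM in wild-type replicates 1 to 3. The lowest clo/+ library was thus above the highest wild-type one, as for 9.63% of all genes tested. The log2 fold change of flt1 was 1.12 (SE 0.23) and its adjusted p 0.0891 in edgeR's quasi-likelihood test, adjusted by the Benjamini-Hochberg method. It lay between 0.92 (without clo/+ replicate 3) and 1.24 with 1 library left out, at edgeR adjusted p from 0.136 to 0.397. Kdrl was at 192, 137 and 178 CPM in clo/+ and at 154, 87.0 and 111 CPM in wild type. Its groups overlapped, since wild-type replicate 1 lay above clo/+ replicate 2, and its log2 fold change was 0.52 (SE 0.23, edgeR adjusted p 0.385). With 1 library left out, that value lay between 0.35 and 0.77. Kdr, the second receptor of the VEGFR2 type, was at 32.6, 24.8 and 50.1 CPM in clo/+ and at 31.3, 26.9 and 26.0 CPM in wild type. Clo/+ replicate 3 stood well above the rest: the log2 fold change was 0.34 (SE 0.25, edgeR adjusted p 0.605) with it and 0.02 without it. Without clo/+ replicate 2 the value was 0.55, with an unadjusted p under 0.05. Flt4 had 8, 15 and 16 counts in clo/+ and 5, 5 and 9 counts in wild type, too few to pass the filter, so its difference was not tested.

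**Figure D1:**
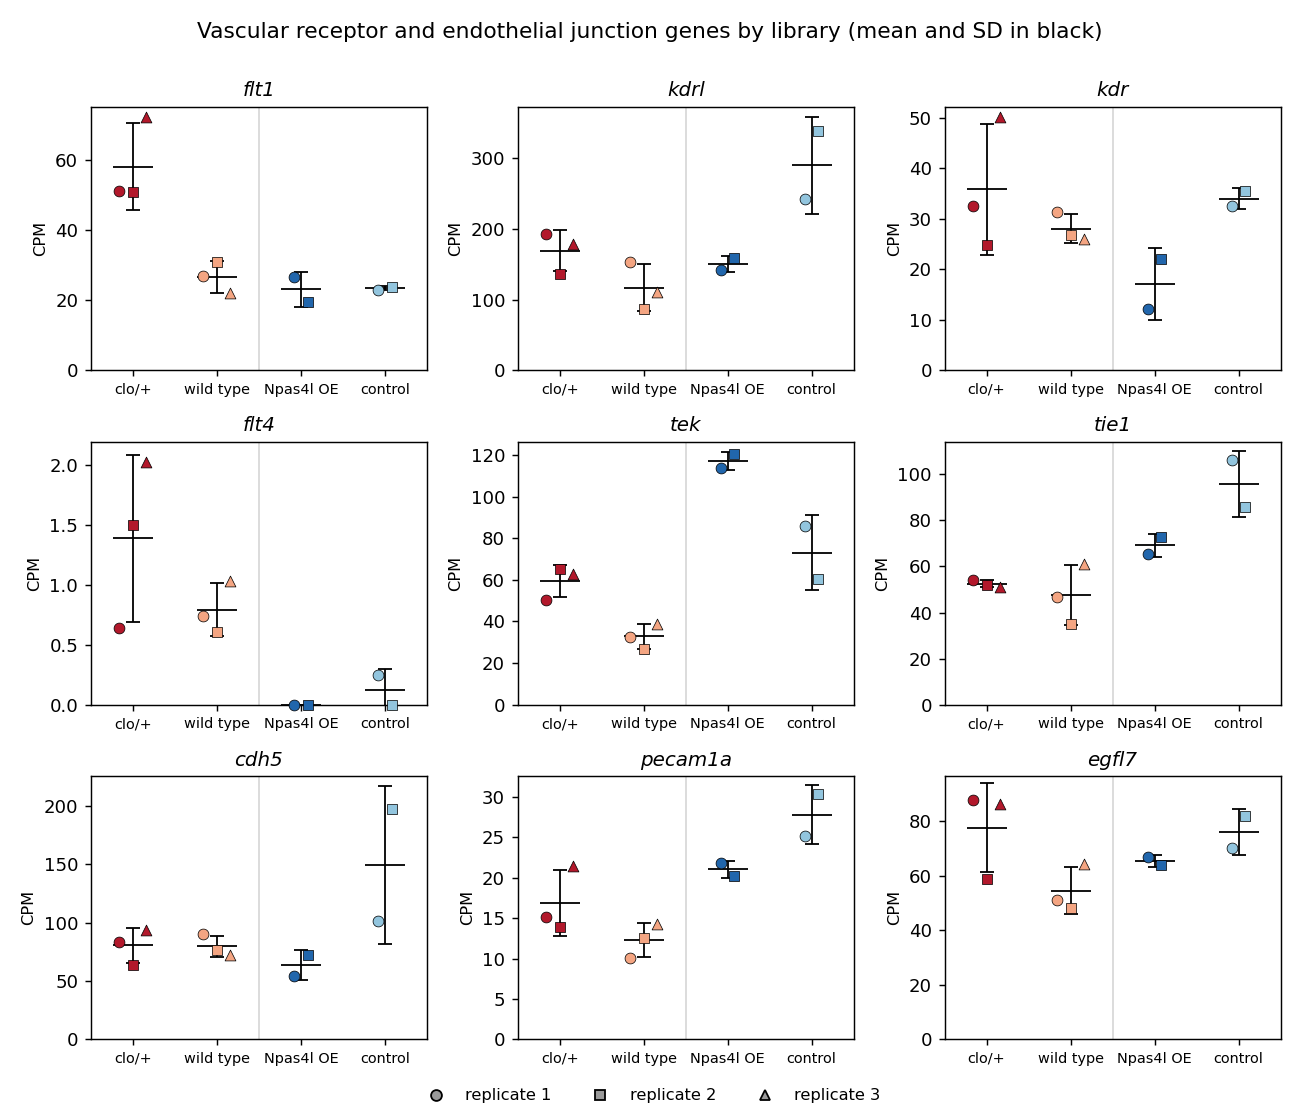
Level of each of the 9 genes in CPM (y axis, from 0) by group (x axis), with 1 symbol per library and the mean and SD in black. Flt1 was at 50.9 CPM or more in every clo/+ library and at 31.0 CPM or less in the other 7, tek was highest in the OE-labelled libraries, and flt4 was at 2.02 CPM or less throughout.

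The angiopoietin receptor tek was at 50.4, 65.3 and 62.6 CPM in clo/+, against 32.5, 27.0 and 39.0 CPM in wild type. These groups did not overlap either, and the log2 fold change was 0.84 (SE 0.22, edgeR adjusted p 0.16). It lay between 0.72 and 0.996 with 1 library left out, at edgeR adjusted p from 0.132 to 0.457. Tie1 was at 54.1, 52.1 and 51.2 CPM in clo/+ and at 46.7, 34.9 and 61.1 CPM in wild type. The clo/+ values lay inside the wild-type range, the log2 fold change was 0.13 (SE 0.22, edgeR adjusted p 0.847), and its 95% interval ran from -0.34 to 0.60. With 1 library left out, the value lay between -0.05 and 0.36. RefSeq places an antisense RNA gene, lnc.tie1, inside tie1, and with no statement on strand its reads could not be told apart from those of tie1. RefSeq also places uncharacterised genes over kdr, cdh5 and egfl7, with the same limit.

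For the junction gene cdh5 the levels were 83.5, 64.0 and 93.9 CPM in clo/+ and 89.9, 76.8 and 72.0 CPM in wild type. All wild-type values lay inside the clo/+ range, with a log2 fold change of 0.01 (SE 0.21, edgeR adjusted p 0.993) and a 95% interval from -0.44 to 0.45, which leaves out a difference of the size seen for flt1. The sign of this value changed with the fit. Pecam1a was at 15.2, 13.9 and 21.5 CPM in clo/+ and at 10.1, 12.5 and 14.2 CPM in wild type, and the lowest clo/+ library lay just under the highest wild-type one. Its log2 fold change was 0.44 (SE 0.28, edgeR adjusted p 0.539), and it lay between 0.22 and 0.57 with 1 library left out. Egfl7 was at 87.9, 58.8 and 86.3 CPM in clo/+ and at 51.1, 48.0 and 64.2 CPM in wild type, with clo/+ replicate 2 below wild-type replicate 3. Its log2 fold change was 0.50 (SE 0.22, edgeR adjusted p 0.378).

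None of the other vascular genes in the lists passed an adjusted p of 0.05 in this comparison. Of the ligands, 7 of 12 genes were tested, with a median log2 fold change of 0.10; the VEGF-A gene ENSDARG00000034700, which encodes a ligand of the VEGFR2 receptors, had 0.55 (SE 0.25, edgeR adjusted p 0.382). Among 10 tested co-receptors and phosphatases the median was 0.04. There ptprb, the phosphatase that acts on tek and VE-cadherin, had 0.69 (SE 0.28, edgeR adjusted p 0.331). The 26 tested junction partners had a median of 0.05, with 5 higher and 1 lower at an unadjusted p under 0.05, and the 17 tested genes of VEGF receptor signalling a median of 0.31, with 3 higher and 1 lower. Among 26 tested genes of endothelial identity the median was 0.22, with 4 higher and 1 lower. Several of these genes are also used by blood cells (fli1, lmo2, tal1 and cd34). Vwf, among the higher genes at 0.91 (SE 0.34, edgeR adjusted p 0.289), is also in the thrombocyte list and counts in both. The 1 lower gene was s1pr1, with a log2 fold change of -0.81 (SE 0.31, edgeR adjusted p 0.313) and groups that overlapped. The transcription factor gene erg was at 10.4, 8.39 and 11.5 CPM in clo/+ and at 4.00, 1.82 and 5.16 CPM in wild type, without overlap, a log2 fold change of 1.45 (SE 0.41, edgeR adjusted p 0.185). The arterial Notch ligand gene dll4 was at 24.7, 30.3 and 46.8 CPM in clo/+ and at 16.4, 13.1 and 19.8 CPM in wild type, also without overlap, a log2 fold change of 1.03 (SE 0.27, edgeR adjusted p 0.161). In its list cxcr4 (ENSDARG00000041959) was lower without overlap, at -0.65 (SE 0.21, edgeR adjusted p 0.238). Over all genes tested, 9.63% were higher in clo/+ without overlap, and the share lower without overlap is not given here. The 11 tested arterial and Notch genes had a median of 0.41, with 1 higher and 1 lower at that unadjusted p. For 7 tested endocardial genes the median was 0.47, with 2 higher and 0 lower. For 4 tested lymphatic and venous genes it was 0.57, with 0 at that p.

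Markers of other cells were measured beside these values, and none of their genes passed an adjusted p of 0.05 in edgeR. Of 16 tested macrophage genes 14 were higher in clo/+, with 5 higher and 1 lower at an unadjusted p under 0.05 and a median log2 fold change of 0.41, beside 0.47 for the vascular genes. The scavenger receptor gene marco had 2.04 (SE 0.45, edgeR adjusted p 0.119). The 22 macrophage genes summed to between 733 and 853 CPM in clo/+ and between 639 and 774 CPM in wild type. These sums overlapped between the groups. They held 204 to 239 CPM of grna.1 in clo/+ and 236 to 338 CPM in wild type, against the direction of most of the list. In a library 4 to 5 of these genes were at 0, mostly copies of mfap4. Of 12 tested fibroblast and epicardium genes 8 were higher, 3 of them and 1 lower gene at that p, with a median of 0.39. Of 12 tested mural genes 8 were higher and 4 lower, with a median of 0.31. Their sum went the other way, with 1153 to 2095 CPM in clo/+ and 2265 to 2542 CPM in wild type, and most of it was tagln and myh11. The 16 tested cardiomyocyte genes had a median of 0.17, with 1 higher and 0 lower at that p. Of 14 tested thrombocyte genes 10 were lower, with 2 higher and 3 lower at that p and a median of -0.32. The 15 thrombocyte genes summed to between 3638 and 6351 CPM in clo/+ and between 5400 and 6519 CPM in wild type. The part of these cells in the levels of the vascular genes was not tested. Grna.1, tagln and myh11 were singled out after their values were seen.

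In gata1a-sorted cells, most members stood lower in the OE-labelled libraries than in the controls, and tek stood higher. The level of cdh5 was 0.419 times, that of kdr 0.4997 times and that of kdrl 0.512 times the control level in the fit, while tek was 1.59 times its control level and flt1 was at nearly the same level in both groups. No member passed an adjusted p of 0.05 in edgeR's quasi-likelihood test, where 0.0357% of the 14006 genes tested did. DESeq2 called cdh5 and kdrl among 385 calls over all genes, and limma-voom called no member. Of the 8 tested members 1 had a log2 fold change above 0, as did 49.4% of all genes. At an unadjusted p under 0.05, 3 members were lower (kdrl, kdr and cdh5; 9.36% of all genes) and 1 was higher (tek; 6.11% of all genes). Without OE-labelled replicate 1 that count of 4 became 2. For 6 members both OE-labelled values were under both control values, as for 23.7% of all genes, and above both for tek, as for 24.1%. The median log2 fold change of the 8 tested members was -0.45, beside -0.01 over all genes tested. Flt4 was again not tested.

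Kdrl was at 142 and 159 CPM in the OE-labelled libraries and at 242 and 338 CPM in the controls. The log2 fold change was -0.97 (SE 0.24, edgeR adjusted p 0.131). Kdr was at 12.05 and 22.1 CPM in the OE-labelled libraries, against 32.4 and 35.4 CPM in the controls, a log2 fold change of -1.001 (SE 0.33, edgeR adjusted p 0.200). Both receptors of the VEGFR2 type thus had groups that did not overlap. The value of kdr depended on single libraries: it was -0.62 without OE-labelled replicate 1 and -1.48 without OE-labelled replicate 2. The decoy receptor gene flt1 was at 26.6 and 19.6 CPM in the OE-labelled libraries and at 23.0 and 23.8 CPM in the controls, which lie between them. Its log2 fold change of -0.03 (SE 0.29, edgeR adjusted p 0.974) had a 95% interval from -0.67 to 0.61, and its sign changed with the scaling. Flt4 had no count in either OE-labelled library, where a count of 0 allows up to 3 counts, or 0.380 and 0.310 CPM, and it had 2 and 0 counts in the controls.

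Tek was at 114 and 120 CPM in the OE-labelled libraries and at 85.9 and 60.3 CPM in the controls, a log2 fold change of 0.67 (SE 0.24, edgeR adjusted p 0.237). The groups did not overlap, and the value was 0.94 without control replicate 1, whose genotype label is that of the mutant, and 0.45 without control replicate 2. Tie1 was at 65.6 and 72.6 CPM in the OE-labelled libraries and at 106 and 85.6 CPM in the controls, a log2 fold change of -0.48 (SE 0.23, edgeR adjusted p 0.355). The tek and tie1 values therefore lay on opposite sides of the controls.

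Cdh5 was at 54.3 and 72.6 CPM in the OE-labelled libraries and at 102 and 197 CPM in the controls, with a log2 fold change of -1.25 (SE 0.32, edgeR adjusted p 0.144). Control replicate 2 was far above the other 3 libraries. Without it the log2 fold change was -0.68, and without control replicate 1 it was -1.66. Pecam1a was at 21.8 and 20.2 CPM in the OE-labelled libraries and at 25.2 and 30.4 CPM in the controls, a log2 fold change of -0.42 (SE 0.28, edgeR adjusted p 0.513). Egfl7 was at 66.8 and 63.8 CPM in the OE-labelled libraries and at 70.0 and 82.0 CPM in the controls, a log2 fold change of -0.23 (SE 0.23, edgeR adjusted p 0.686). Without control replicate 2 these last values were -0.26 for pecam1a and -0.10 for egfl7, and without control replicate 1 they were -0.55 and -0.35.

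**Figure D2:**
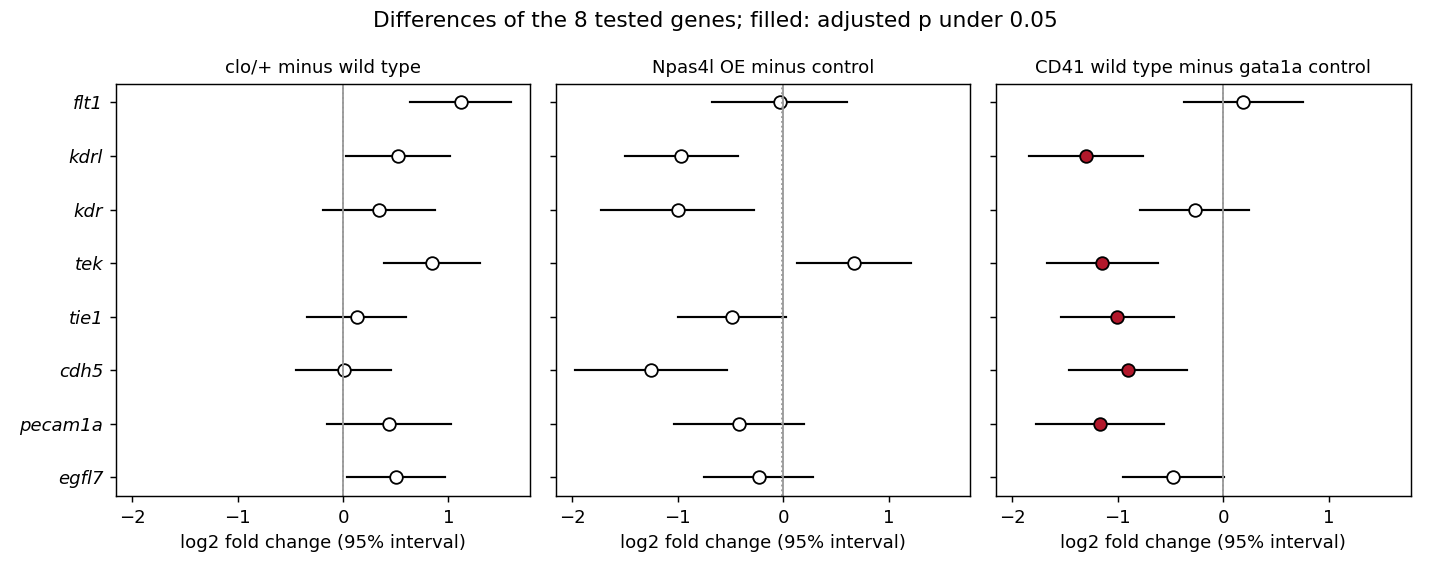
Log2 fold change (x axis) of the 8 tested genes in 3 comparisons, with the 95% interval as a line, and filled points for an adjusted p under 0.05. In clo/+ flt1 and tek lie furthest to the right, in the OE-labelled libraries only tek lies to the right of 0, and in CD41 wild type against gata1a controls 5 genes are filled, all lower in CD41 wild type.

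Of the other vascular genes tested, none passed an adjusted p of 0.05 in the OE-labelled libraries. Ligands went both ways: vegfc, the ligand of flt4, was at 515 and 452 CPM in these libraries and at 295 and 215 CPM in the controls, a log2 fold change of 0.91 (SE 0.23, edgeR adjusted p 0.132). Angpt1, a ligand of tek, was at 213 and 197 CPM in the OE-labelled libraries and at 125 and 89.0 CPM in the controls, a log2 fold change of 0.93 (SE 0.24, edgeR adjusted p 0.135). The VEGF-A gene ENSDARG00000034700 was at 26.6 and 34.6 CPM in the OE-labelled libraries and at 42.1 and 62.7 CPM in the controls, a log2 fold change of -0.79 (SE 0.29, edgeR adjusted p 0.239). None of these ligands overlapped between the groups, where 24.1% of all genes tested were higher and 23.7% lower without overlap. For the 7 tested ligands the median was -0.24. In VEGF receptor signalling, dusp5, a phosphatase of the ERK pathway, had a log2 fold change of 1.04 (SE 0.25, edgeR adjusted p 0.130), and the median of 17 tested genes was -0.17.

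Among 25 tested genes of endothelial identity, 9 were lower and 2 higher at an unadjusted p under 0.05, with a median log2 fold change of -0.53; 19 of the 25 were lower. The summed level of the list overlapped between the groups, at 3583 and 3436 CPM in the OE-labelled libraries and 3570 and 3072 CPM in the controls. Genes of the list that blood cells also use stood higher: lmo2 was at 426 and 390 CPM in the OE-labelled libraries and at 321 and 176 CPM in the controls, and cd34 at 590 and 614 CPM in the OE-labelled libraries and at 446 and 465 CPM in the controls. These 2 genes were singled out after their values were seen. Clec14a, an endothelial membrane lectin, was at 87.0 and 86.7 CPM in the OE-labelled libraries and at 144 and 165 CPM in the controls. The endothelial TGF-beta receptor gene acvrl1 was at 16.9 and 23.2 CPM in the OE-labelled libraries and at 43.6 and 38.1 CPM in the controls. Their log2 fold changes were -0.85 (SE 0.22) and -1.04 (SE 0.28), with edgeR adjusted p of 0.145 and 0.148. The 8 tested endocardial genes were split, 4 higher and 4 lower, with a median of -0.06 and 1 lower at an unadjusted p under 0.05. All 3 tested lymphatic and venous genes were lower, 0 of them at that p, with a median of -0.70. Of 11 tested arterial and Notch genes, 3 were lower and 0 higher at that p, with a median of -0.64. Of 27 tested junction partners 2 were lower, heg1 and arhgap29a, and the median was -0.13. Of 10 tested co-receptors and phosphatases 0 were lower or higher, with a median of 0.13. The counts over lists were taken from edgeR alone.

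Markers of several other cells were lower together with kdrl, kdr and cdh5, although none of these genes passed an adjusted p of 0.05 in edgeR. Erythroid genes had the lowest median of the lists, with 7 of 8 tested genes lower, 6 of them at an unadjusted p under 0.05, and a median log2 fold change of -1.85. The globin gene hbaa1 was at 126 and 222 CPM in the OE-labelled libraries and at 1056 and 550 CPM in the controls, a log2 fold change of -2.22 (SE 0.35, edgeR adjusted p 0.0605). The sum of the erythroid list showed less of this, with 925 to 980 CPM in the OE-labelled libraries and 1048 to 1968 CPM in the controls, because gata1a made up 821 and 647 CPM of it in the OE-labelled libraries and 706 and 385 CPM in the controls. Of 16 tested macrophage genes 13 were lower, 10 of them at that p, with a median of -1.58. They summed to 314 and 1083 CPM in the OE-labelled libraries and to between 1453 and 2725 CPM in the controls, with 4 to 6 of the 22 at 0. All 16 tested cardiomyocyte genes were lower, 12 of them at that p, with a median of -0.87. They summed to between 28823 and 29698 CPM in the OE-labelled libraries and between 49064 and 61322 CPM in the controls. Of 10 tested mural genes 6 were lower, with 4 lower and 0 higher at that p and a median of -0.61. The smooth muscle actin gene acta2 was at 12.7 and 10.3 CPM in the OE-labelled libraries and at 72.0 and 36.3 CPM in the controls. The mural sum was nonetheless higher, at 2610 to 2693 CPM in the OE-labelled libraries and 1720 to 2286 CPM in the controls, and again most of it was tagln and myh11. Of 13 tested thrombocyte genes 9 were higher, with 3 higher and 2 lower at that p and a median of 0.21. They summed to between 10598 and 11391 CPM in the OE-labelled libraries and between 8521 and 9919 CPM in the controls. The part of these cells in the lower levels of kdrl, kdr and cdh5 was not tested.

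**Figure D3:**
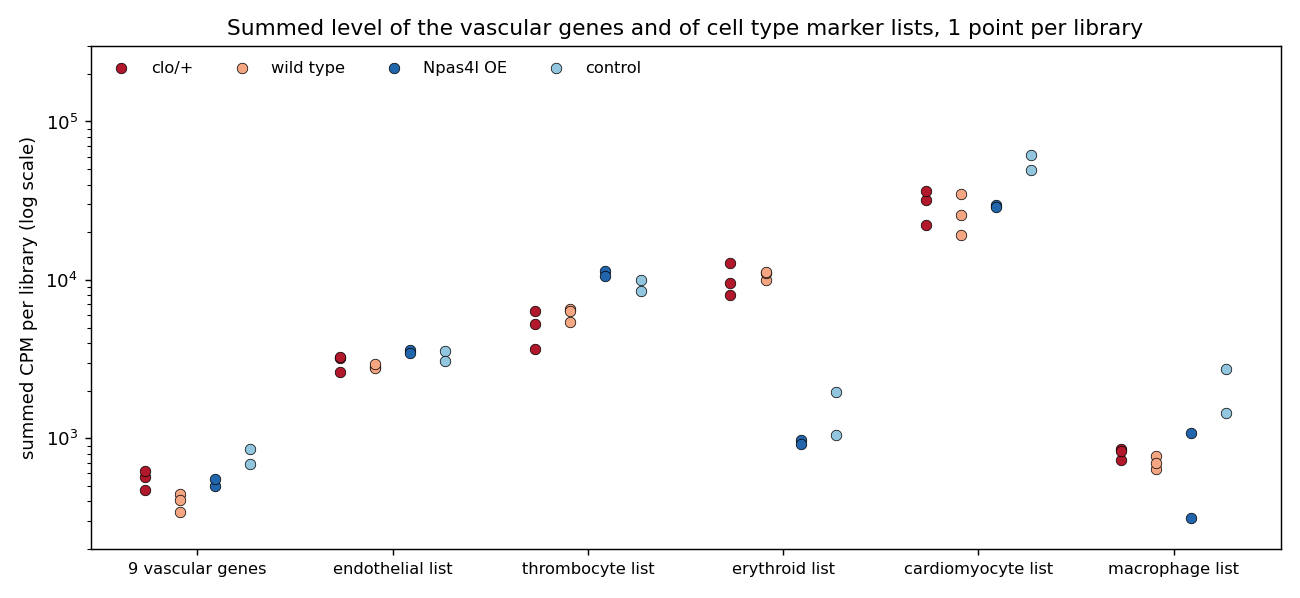
Summed CPM per library on a log axis (y axis) for the 9 vascular genes and 5 marker lists (x axis), with 1 point per library and colours for the groups. The vascular genes summed to between 345 and 853 CPM, far below the cardiomyocyte genes at 19190 CPM or more in every library. A few abundant genes set the sums of some lists, such as gata1a in the erythroid list of the gata1a-sorted libraries.

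The summed level of the 9 genes was 568, 468 and 618 CPM in clo/+ replicates 1 to 3 and 443, 345 and 410 CPM in wild-type replicates 1 to 3. In the second experiment it was 503 and 550 CPM in the OE-labelled libraries and 686 and 853 CPM in the controls. Neither pair of groups overlapped, and kdrl made up the largest part of the sum in every library.

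The groups that served for comparison in each experiment were also set against each other, CD41-sorted wild type against the gata1a-sorted controls. Reporter, injury, treatment, transgenes and time differ together between them and cannot be told apart, and control replicate 1 carries the mutant's genotype label. In this comparison 5 members were lower in CD41 wild type with an adjusted p under 0.05, kdrl, tek, tie1, cdh5 and pecam1a, as were 9.57% of the 14245 genes tested; 20.5% passed in either direction. Leaving out wild-type replicate 1 brought the 5 to 2, and leaving out either wild-type replicate 2 or control replicate 2 brought it to 3. Kdrl had the largest difference of the 8 tested genes, at -1.30 on the log2 scale (SE 0.25, edgeR adjusted p 0.00264). Pecam1a had -1.17 (SE 0.28, edgeR adjusted p 0.0102), tek -1.15 (SE 0.24, edgeR adjusted p 0.00485), tie1 -1.004 (SE 0.25, edgeR adjusted p 0.0119) and cdh5 -0.90 (SE 0.26, edgeR adjusted p 0.0258). In 7 members every CD41 wild-type library lay below both controls, as for 24.6% of all genes. The call of cdh5 was lost without control replicate 2, where its log2 fold change was -0.35 (-1.30 without control replicate 1), and also without any one of the 3 wild-type libraries. The calls of pecam1a and tie1 were lost in some of these fits too, at adjusted p from 0.0501 to 0.0659, while kdrl and tek passed in all 5. Flt1 had a log2 fold change of 0.19 (SE 0.26), egfl7 one of -0.48 (SE 0.22) and kdr one of -0.27 (SE 0.24), at edgeR adjusted p of 0.662, 0.151 and 0.473.

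Other endothelial genes went both ways in CD41 wild type. Of 25 tested identity genes, 9 were lower and 3 higher at an adjusted p under 0.05, where 9.57% of all genes were lower and 10.9% higher. Among the lower ones, clec14a had a log2 fold change of -1.17 (SE 0.22, edgeR adjusted p 0.00219) and acvrl1 one of -1.44 (SE 0.30, edgeR adjusted p 0.00479). The 3 higher genes were s1pr1 at 3.32 (SE 0.47, edgeR adjusted p 0.000298), aqp1 (ENSDARG00000023713) at 1.58 (SE 0.27, edgeR adjusted p 0.00128) and cd34 at 0.65 (SE 0.20, edgeR adjusted p 0.0322). Junction partners had 3 higher and 3 lower of 27 tested, with cldn5 (ENSDARG00000014059) higher at 3.03 (SE 0.47, edgeR adjusted p 0.000587). The 2 ligands that passed were higher in CD41 wild type: vegfc, at 0.72 (SE 0.21, edgeR adjusted p 0.0272), and angpt1, at 0.70 (SE 0.23, edgeR adjusted p 0.0447). The cardiomyocyte genes summed to between 19190 and 34789 CPM in CD41 wild type and between 49064 and 61322 CPM in the controls. For the macrophage genes the sums were 639 to 774 CPM in CD41 wild type and 1453 to 2725 CPM in the controls, and for the erythroid genes 9981 to 11139 CPM in CD41 wild type and 1048 to 1968 CPM in the controls. The part of these cells in the vascular differences was not tested.

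The experiments share no library, so the difference between their effects could be tested in one fit. It was the change in the OE-labelled libraries minus the change in clo/+. Each change was measured under its own reporter, injury, treatment and time, and their parts in the difference cannot be told apart. No member passed an adjusted p of 0.05 in edgeR's quasi-likelihood test, where 0.774% of 15380 genes did. In DESeq2, whose share over all genes is not given here, 2 members did, and in limma-voom 0. At an unadjusted p under 0.05 there were 6 members, all with a negative difference, as for 9.45% of all genes, while 5.84% had a positive one at that p; without control replicate 2 there were 3. Kdrl had the smallest adjusted p, 0.0709, with a difference of -1.48 (SE 0.37) on the log2 scale, followed by cdh5 at -1.25 (SE 0.39, edgeR adjusted p 0.135), flt1 at -1.14 (SE 0.36, edgeR adjusted p 0.143) and kdr at -1.34 (SE 0.43, edgeR adjusted p 0.148). Tek, which was higher in both experiments, had a difference of -0.18 (SE 0.33, edgeR adjusted p 0.842), with a 95% interval from -0.87 to 0.52. Flt4 entered this fit mainly through its few counts in CD41 cells, and its value is not given.

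Over all 4 groups, the genes differed in which group was highest. The order of means for flt1 was clo/+ at 58.2 ± 12.3 CPM (SD, n = 3), wild type at 26.6 ± 4.49 CPM (SD, n = 3), controls at 23.4 ± 0.576 CPM (SD, n = 2) and the OE-labelled libraries at 23.1 ± 4.95 CPM (SD, n = 2); only the step from clo/+ down to wild type was without overlap. Tek was highest in the OE-labelled libraries at 117 ± 4.49 CPM (SD, n = 2), then in the controls at 73.1 ± 18.1 CPM (SD, n = 2), in clo/+ at 59.4 ± 7.90 CPM (SD, n = 3) and in wild type at 32.8 ± 6.02 CPM (SD, n = 3), and the values of controls and clo/+ overlapped. Kdrl, tie1, cdh5 and pecam1a were highest in the controls, in each case without overlap with the next group. For tie1 and pecam1a that was the OE-labelled group, where 23.7% of all genes tested were lower than the controls without overlap. For kdrl and cdh5 it was clo/+, from the other experiment, and no share of all genes was computed for that step. Between the experiments, reporter, injury, treatment, transgenes and time differ together and cannot be told apart. For kdrl, cdh5 and pecam1a none of the 3 lower groups could be separated from its neighbour in the order of means. Kdr and egfl7 were highest in clo/+, where their values overlapped those of the controls.

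Ratios of read counts within a library do not depend on the scaling between libraries. Ratios of 6 pairs were computed, and none was tested. How often the ratios of other gene pairs separate these groups was not computed. The 3 given first were chosen after their values were seen. The ratio of tek to cdh5 was 0.604, 1.02 and 0.666 in clo/+ and 0.361, 0.351 and 0.541 in wild type, and it was 2.098 and 1.66 in the OE-labelled libraries and 0.846 and 0.306 in the controls. It was thus higher in every clo/+ and every OE-labelled library than in the libraries they were compared with. The ratio of flt1 to cdh5 was 0.613, 0.796 and 0.771 in clo/+ and 0.298, 0.403 and 0.306 in wild type. In the OE-labelled libraries it was 0.491 and 0.270, and in the controls 0.227 and 0.121, again without overlap. For tek to kdrl the groups overlapped in clo/+ and wild type, while the ratios were 0.803 and 0.758 in the OE-labelled libraries and 0.355 and 0.178 in the controls. The ratio of egfl7 to cdh5 was also higher without overlap in both experiments. It was 1.052, 0.919 and 0.919 in clo/+ and 0.568, 0.625 and 0.892 in wild type. In the OE-labelled libraries it was 1.231 and 0.879, and in the controls 0.689 and 0.416. The 3 ratios to cdh5 share their denominator, and all were higher in clo/+ and in the OE-labelled libraries. The ratio of kdr to kdrl overlapped between the groups in both experiments. For flt1 to kdrl the groups overlapped in clo/+ and wild type but not in the second experiment.

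**Figure D4:**
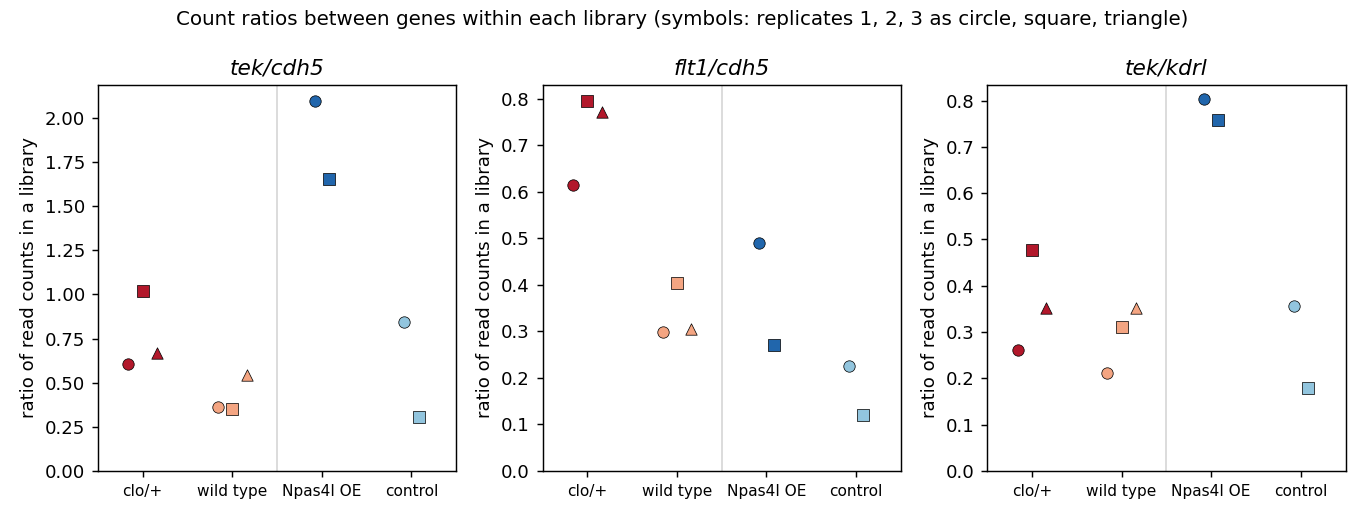
Ratio of read counts of tek to cdh5, flt1 to cdh5 and tek to kdrl (y axes) in each library, by group (x axis). The tek to cdh5 ratio was 1.66 or more in the OE-labelled libraries and at most 1.02 in all others, and the flt1 to cdh5 ratio was at least 0.613 in clo/+ and at most 0.491 elsewhere.

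The likeness of 2 genes was measured as the root mean square difference of their log2 CPM, each centred on its own mean, over the 10 libraries. Among 7613 genes averaging at least 10 CPM, clec14a was closest to kdrl, at 0.15, where kdrl itself varied by 0.52 around its mean. Next came perm1b at 0.17, which is not in the vascular lists. For the other members the closest genes were not in the vascular lists, and each distance is set beside the member's own variation. The closest were tcea2 for tie1 at 0.09 beside 0.43, agpat3 for pecam1a at 0.10 beside 0.47 and paip2b for egfl7 at 0.12 beside 0.28. Next were hspa4 for tek at 0.17 beside 0.68, sbf2 for cdh5 at 0.18 beside 0.48 and perp for kdr at 0.18 beside 0.50. Tomm70 for flt1 lay at 0.27 beside 0.60, and septin3 for flt4, with its few counts, at 0.32 beside 1.17. Within the group of 9, tie1 and pecam1a were the most alike at 0.29, followed by kdrl and cdh5 at 0.34. With 10 points and this many genes, such neighbours are descriptions of these libraries.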

How the data were processed

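The deposited files hold unnormalized counts from the authors, 1 file for each library. They list 32520 Ensembl genes, and 5 closing lines that name no gene were left out. Genes held 41.0% to 49.3% of the reads in a file. The submitters' processing notes name FastQC 0.11.4, Trim Galore 0.6.0, HISAT2 2.1.0, DESeq2 1.22.1 and the build GRCz11; the counter and its use of strand are not given in the sources used here. Libraries were made from amplified cDNA with no molecular identifiers mentioned, so floors cover counting error only.

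Titles set the groups. Gene symbols are from a name table and are written in lower case; 57 symbols of the other lists matched only after a gene copy's letter or number was dropped, and 192 of 201 matched. Such copies are not told apart by symbol and can share reads.

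Each comparison was fitted with edgeR 4.0.16 in R 4.3.3 on the counts of its own groups: genes were kept by filterByExpr (count of at least 10, total of at least 15), scaled by TMM and tested by quasi-likelihood, with Benjamini-Hochberg adjustment over all genes tested and a threshold of 0.05. The difference between experiments used all 10 libraries. Standard errors are the log2 fold change over the square root of F, and 95% intervals use the test's degrees of freedom. Exact permutation cannot give a two-sided p below 0.1 for 3 against 3, or below 0.333 for 2 against 2, as in the OE-labelled comparison. The models therefore carry the tests, which are two-sided. Alternatives were other scalings, filters and tools (DESeq2 1.42.0, limma-voom 3.58.1), a replicate block and each library left out. The scripts were tested on simulated counts. From the other lists, up to 3 genes per list and comparison with the smallest unadjusted p, and genes past the adjusted threshold, could be named; fewer were. The members and lists were chosen with earlier results of these data known. Sequences were not used here.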

Additional observations from a re-analysis of the deposited data

How the results depend on the processing

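Over the alternatives, 480 log2 fold changes of the members were recomputed. Of these, 435 kept their direction and their side of an adjusted p of 0.05, 24 gained the threshold, 10 lost it and 11 changed sign. All 10 losses were in CD41 wild type against the controls, the only comparison where members had passed in the main fit. The count of members past the threshold, 0 in clo/+ by edgeR, became 2 when low counts were kept and 2 in DESeq2 (flt1 and tek both times), while the count over all genes moved from 2 to 211 and 150. In the OE-labelled libraries it was 0, and 2 without a filter or with DESeq2 (cdh5 and kdrl), where all genes gave 648 and 385 calls in place of 5. For the difference between experiments the count of 0 became 3 without a filter, 2 with DESeq2, 1 with at least 10 counts in every library and 1 with edgeR's adjusted deviance. Each library left out in turn gave 0 members in clo/+, 0 to 3 in the OE-labelled libraries (3 without control replicate 1: cdh5, kdrl and tek), 2 to 4 in CD41 wild type against the controls, where all libraries gave 5, and 0 to 2 for the difference. At an unadjusted p under 0.05 these fits gave 2 to 5, 2 to 5, 4 to 6 and 3 to 7 members in the same comparisons. Fits with 1 library left in a group assume that it varies like the other group. For the difference, and for the fits with a library left out, the counts over all genes are not given here. Those counts of members therefore have no share of all genes beside them.

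With the replicate number as a block, 1 member passed in clo/+ (flt1) and 1 in the OE-labelled libraries (cdh5), where all genes gave 120 and 187 calls. In CD41 wild type 4 passed and for the difference 1 (kdrl), and the counts over all genes are not given for these. Same-numbered deviations from the group means correlated weakly, at 0.007, 0.075 and 0.080 in the CD41 experiment and at 0.056 in the other. For clo/+ replicates 2 and 3 the same-numbered wild-type library correlated best. For clo/+ replicate 1 it was wild-type replicate 2 (0.0145). With 2 libraries in a group the deviations mirror each other, so the gata1a experiment gives a single value up to its sign. These correlations cannot settle whether the numbers pair the libraries.

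Signs changed for cdh5 in clo/+ (-0.0075 with limma-voom, -0.0082 with the block, and -0.12 to 0.15 with a library left out), for tie1 there (-0.0497 to 0.36 with a library left out), for flt1 in the OE-labelled libraries (0.16 with library size as the only scaling, and -0.26 to 0.20 with a library left out), and for tek in the difference (-0.40 to 0.10 with a library left out). Library size alone shifted the median of all genes in the OE-labelled libraries to 0.18, against -0.01 with TMM factors. Depth limits flt4, at 16 counts or fewer. The cause of these dependences was not tested.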
